A study of Homo sapiens with 6 samples.

Results

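The 32 genes described here encode RNA polymerase I and the proteins that process and modify its transcript. They comprise 5 subunits of polymerase I, 4 subunits that it shares with other nuclear polymerases, 6 initiation factors, 4 proteins of box C/D and 5 of box H/ACA small nucleolar ribonucleoproteins (snoRNPs), 5 nucleolar organisers and chaperones and 3 further proteins of ribosomal RNA methylation and ribosomal DNA silencing. They were chosen by name from a table of 59251 gene symbols, and all 32 passed the filter on low counts. The cells were HCT116, a human colorectal carcinoma line, either unedited (WT, labelled Wt; 3 libraries) or carrying the N106S change on both alleles of eIF6, a factor that binds the large ribosomal subunit (MUT, labelled eIF6-N106S; 3 libraries). The mutant cells came from CRISPR/Cas9-edited clones, and cells of both groups grew in the same medium with no treatment named. Nothing in the labels tells whether the 3 libraries of a group came from separate cultures or clones, and the p-values therefore reflect the scatter of these libraries alone, which may be technical.

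RNA polymerase I works in the nucleolus and copies the ribosomal DNA repeats into a long precursor of the 18S, 5.8S and 28S ribosomal RNAs. The factor UBTF and the TAF1 proteins of selectivity factor SL1 mark the promoter, and RRN3 brings in the polymerase. On the precursor, box C/D snoRNPs guide methylation of ribose and box H/ACA snoRNPs guide the change of uridine to pseudouridine. eIF6 acts further along the same route, on the large subunit that is built on this RNA.

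Total counts per library ran from 53986494 to 87656970, of which 10103124 to 19678584 were neither 7SL, 7SK, RNase P, RNase MRP nor ribosomal RNA. The 32 genes together took 0.432% to 0.575% of those counts. A single gene had between 40 counts (TAF1A in WT replicate 3) and 24132 (NPM1 in MUT replicate 2). MUT replicate 2 stood apart: ribosomal RNA rows took 3.91% of its counts, against 0.0891% to 1.16% in the other libraries, and across genes its log2 values correlated with those of the other MUT libraries at 0.953 and 0.957, whereas those 2 correlated at 0.991. Rows of the 45S precursor, the product of polymerase I, took 0.254% of MUT replicate 2, 0.118% of WT replicate 1 and 0.0124% to 0.026% of the others. Rows of 28S RNA took 1.61%, 0.62% and 0.0683% to 0.202% of the same libraries, and rows of 18S RNA 2.02%, 0.421% and 0.00287% to 0.00902%. The precursor holds the 18S and 28S sequences, so its rows may include reads of mature RNA and do not measure the precursor alone. Of the 32 genes, 11 had their highest value in MUT replicate 2, where 20.9% of all tested genes had theirs. CPM are counts divided by the library size after TMM scaling, on the usual scale of that unit. EIF6 was measured at 43.2, 47.7 and 47.3 CPM in WT and 36.6, 30.6 and 35.6 in MUT, without overlap (log2 fold change -0.43). It did not pass edgeR's test (adjusted p = 0.11) or limma-voom (0.0906). DESeq2's Wald test, which called 5.99% of its tested genes, called it lower (adjusted p = 0.0442). Such a level does not check a base substitution. Of 8 epithelial markers 6 had at least 10 counts in every library, with summed levels of 313 to 504 CPM (of the unscaled total) in WT and 477 to 759 in MUT. CDX1 and VIL1, which mark differentiated intestinal cells, had at most 6 counts. KRT8, KRT18 and KRT19 made up most of that sum, while the highest counts of CLDN7 (837 to 1356 in WT, 670 to 953 in MUT) and CDH1 (35 to 54 and 14 to 31) were in WT libraries. Of 5 leukocyte markers PTPRC and CD3E were at 0 in every library, but CD68 had 43 to 77 counts in WT and 45 to 139 in MUT. The summed level of 5 fibroblast markers was 0.456 to 1.86 CPM (of the unscaled total) in WT and 2.1 to 2.87 in MUT, without overlap on that scale. COL1A1 had 19 to 83 counts and COL3A1 21 to 115. On the unscaled total the median log2 fold change of all tested genes was itself 0.53. The epithelial and fibroblast sums are therefore not a comparison between the groups. The endothelial marker CDH5 was at 0 throughout. The part of these markers in the results was not tested.

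FBL, which encodes fibrillarin, the methyltransferase of box C/D snoRNPs, was 1.5-fold lower in MUT than in WT and was the 1 gene of the 32 that passed the test. NOP2, RRP8 and SIRT7, and the organisers NOLC1, TCOF1 and NCL, had higher values in every MUT library than in any WT library. The same held for the initiation factors UBTF and TAF1A. The differences of these 8 genes were 1.11-fold to 1.4-fold, and none of them passed. Roles were assigned with earlier results of these data known. Of 9 further enzymes of ribosomal RNA modification, 1 (EMG1) was higher and 1 (BUD23) lower without overlap, with a median log2 fold change of -0.08. The 5 subunits of polymerase I differed by at most 1.15-fold (POLR1D), with overlapping groups. In edgeR's quasi-likelihood test 1 of 32 genes (3.12%) was called at an adjusted p below 0.05, where 1.91% of 14808 tested genes were called, 0.986% higher and 0.925% lower in MUT. At an unadjusted p below 0.05, 5 of the 32 (15.6%) were higher and 1 (3.12%) was lower, against 9.79% and 9.84% of all tested genes (19.6% in both directions). Each MUT value was above every WT value for 8 of the 32 (25%) and below for 3 (9.38%), against 12.8% and 13.4% of all tested genes (26.1% together). The median log2 fold change of the 32 was -0.01, as was that of all tested genes, with 16 values above 0 and 16 below (48.7% and 51.3% of all tested genes). Without MUT replicate 2, 0 of the 32 were called by edgeR, where 442 of all tested genes (2.9%) were, and 4 were higher and 2 lower at an unadjusted p below 0.05 (12.5% and 6.25%, against 9.75% and 9.63% of all tested genes). With the 4 libraries low in ribosomal RNA, 0 were called (2.66% of all tested genes), and 4 were higher and 3 lower unadjusted (12.5% and 9.38%, against 8.98% and 9% of all tested genes). NOP2, NOLC1, TCOF1, NCL and FBL were among those genes in all 3 fits, SIRT7 in the first alone; TAF1D joined on the lower side in the other two, and NHP2 in the fit on 4 libraries.

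**Figure D1:**
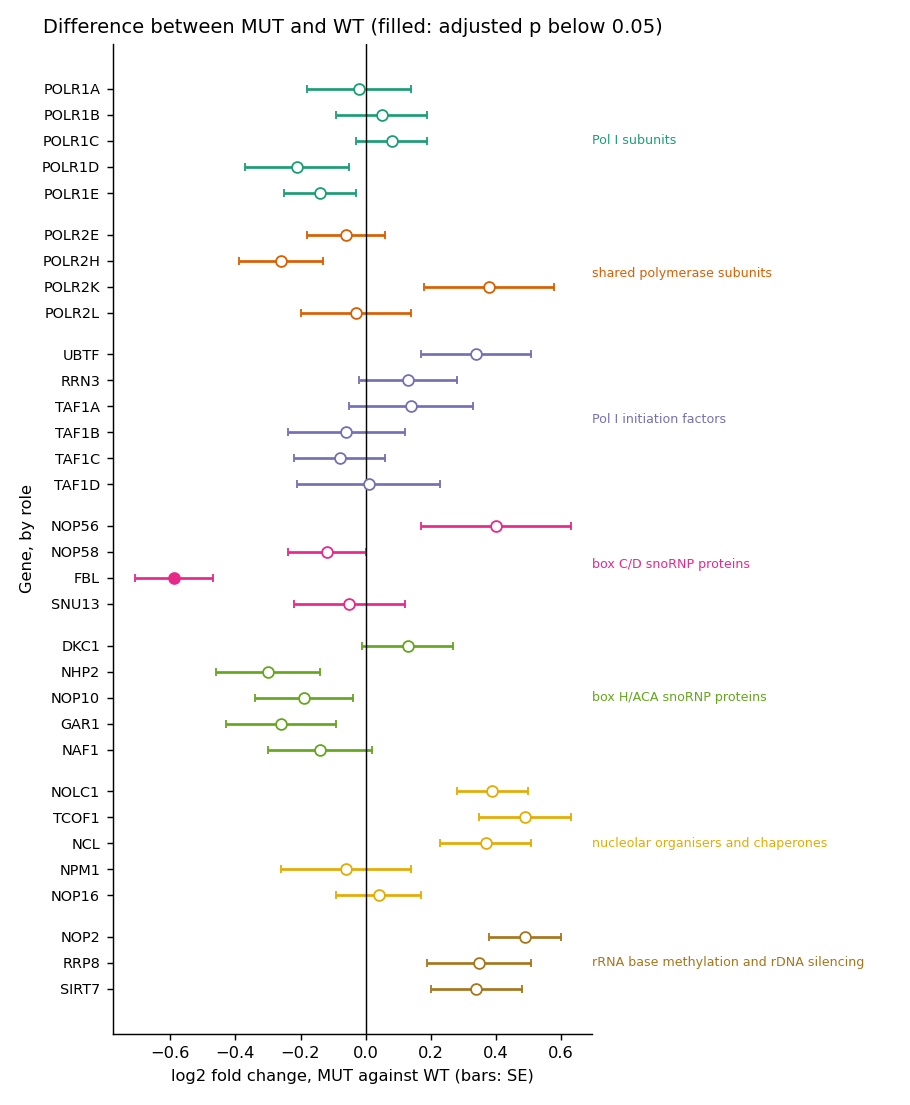
Log2 fold change of MUT against WT for each of the 32 genes, grouped by role, with the standard error from edgeR's quasi-likelihood fit as bars (3 libraries per group). FBL, at -0.59, is the filled point that passed the test; NOP2 and TCOF1, at 0.49, lie farthest to the right.

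The starts of the transcripts are shown because some of these genes begin with a run of pyrimidines, the 5′ terminal oligopyrimidine (TOP) start that ties translation of an mRNA to growth signals. A TOP start was taken as a C followed by at least 4 further C or T bases from the annotated start on. RefSeq promoters (GRCh38.p14, 250 bases before a start and 50 from it on) were at hand for 24 of the 32 genes, and 4 of those (16.7%) had such a start at 1 of their annotated positions, against 988 of 15843 protein-coding genes (6.24%) and 4.07% of all 35116 promoters. Each line below holds 20 bases before the annotated start and 10 from it on, 5′ to 3′ on the strand of the gene, with the pyrimidine run in capitals for the first 4 genes. For NOP10 the capitals mark CACGTG, the E-box bound by factors of the MYC family, and NOP56 is shown as a gene with neither.
FBL (chr19:39846370-39846399, minus strand): cgtcgccgcgcgcctgcgctCTTTTCCacg
NPM1 (chr5:171387829-171387858, plus strand): aagcgcggggagcctgcgtcCTTTCCCTgg
TAF1D (chr11:93741486-93741515, minus strand): gggccacggaaatagccaacCCTTTTCTTC
TAF1B (chr2:9843454-9843483, plus strand): cggccggaagcttctccagcCTTTCCCgga
NOP10 (chr15:34343127-34343156, minus strand): attgacgaaCACGTGacgcggtcgggcgga
NOP56 (chr20:2652612-2652641, plus strand): cgccggagcgcgctagccgcattgcgagcc

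The 4 genes with a TOP start did not share a direction: FBL was called lower, and NPM1 (-0.06), TAF1D (0.01) and TAF1B (-0.06) had log2 fold changes near 0. CACGTG, which reads the same on both strands, was in the promoters of FBL, NOP10, GAR1 and NOP2, that is 16.7% of 24, against 10.9% of protein-coding genes and 7.26% of single promoters. In FBL it begins 6 bases after the first transcribed base and overlaps the end of the pyrimidine run. The line for FBL ends within the motif and shows only its first bases. On either strand, TCTCGCG was found for 7 of 24 genes (NHP2, NPM1, POLR1C, POLR2E, POLR2H, TAF1B and TAF1D; 29.2%, against 5.96% of protein-coding genes and 3.49% of promoters) and CCGGAAGT for another 7 (GAR1, NOP10, POLR1B, POLR1C, RRN3, TAF1A and TAF1C; 29.2%, against 6.97% and 4.14%), with POLR1C in both sets. TATAAA was found for 0 of 24, against 12.4% of protein-coding genes and 11.5% of promoters. Of the 4 genes with CACGTG, NOP2 had a value above 0 and the other 3 had values below 0.

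Transcript levels of the 32 genes, compared as deposited TPM (a share of the library corrected for transcript length), ran from a WT mean of 0.0533 to 41.7 TPM. NOP10, the smallest box H/ACA protein, led in WT at 38.3, 57.1 and 29.6 TPM, followed by the shared subunit POLR2L, the chaperone NPM1 and the box H/ACA protein NHP2, with means of 39.2, 38.5 and 36 TPM. The ranges of these 4 genes over the WT libraries overlapped, so their order is not resolved. POLR1A, the largest subunit of polymerase I and its catalytic core, had the lowest mean, at 0.04, 0.07 and 0.05 TPM, but its range overlapped that of RRP8 (0.05, 0.08 and 0.05 TPM). Its partner in the active centre, POLR1B, stood at 0.143 ± 0.0351 TPM (SD, n = 3), whereas the subunits POLR1C and POLR1D, which polymerase III also uses, stood at 1.96 ± 0.499 and 15.9 ± 6.38 TPM.

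Transcripts for proteins that sit in the same particle were thus measured at very different levels. Protein was not measured. In the box C/D particle, WT means were 20.7 TPM for SNU13, 18.7 for FBL, 5.98 for NOP56 and 0.767 for NOP58. In the box H/ACA particle they were 41.7 TPM for NOP10, 36 for NHP2, 0.443 for the pseudouridine synthase DKC1 and 0.307 for GAR1. Longer transcripts had lower levels: over the 32 genes the mean TPM correlated with the longest GENCODE v29 transcript at a Spearman rho of -0.69, and over 11852 tested protein-coding genes at -0.5. These are descriptions across genes of the same 6 libraries, and the part that library preparation or fragment length may have in them was not tested. MUT replicate 2, in which 7SL took 43.3% of the counts against 56.9% to 64.4% elsewhere, had the highest TPM for 31 of the 32 genes, POLR2H being the exception. TPM is a share of the whole library, abundant small RNAs included, so groups were compared on CPM scaled by TMM and not on TPM.

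**Figure D2:**
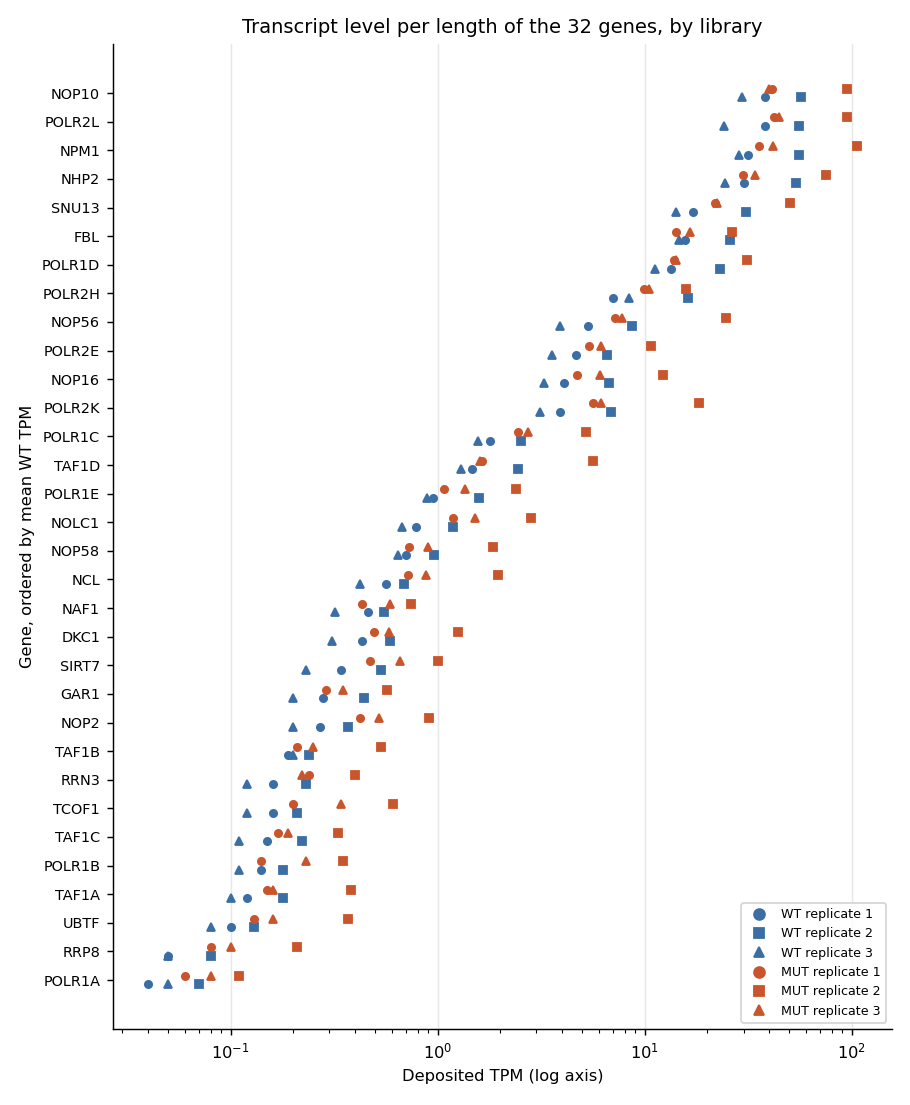
Deposited TPM of the 32 genes in each of the 6 libraries (log axis), ordered by the WT mean; blue points are WT, orange points MUT, and the marker gives the replicate. NOP10 heads the order at a WT mean of 41.7 TPM and POLR1A closes it at 0.0533; the orange squares, MUT replicate 2, lie to the right.

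None of the 5 polymerase I subunits passed edgeR's test, and 0 of them had an unadjusted p below 0.05. POLR1A, the catalytic subunit, was measured at 2.57, 2.76 and 3.42 CPM in WT and 2.88, 2.51 and 3.19 in MUT (log2 fold change -0.02, SE 0.16). POLR1B, the second largest subunit, gave 5.05, 4.41 and 4.89 CPM against 4.21, 4.89 and 5.73 (0.05, SE 0.14). For both, the 6 libraries were interleaved. POLR1C and POLR1D form the assembly platform shared with polymerase III, and mutations in either cause Treacher Collins syndrome, a disorder of facial development. POLR1C (0.08, SE 0.11) and POLR1D (-0.21, SE 0.16) overlapped between the groups, as did POLR1E (-0.14, SE 0.11), the human counterpart of a subunit that helps the yeast enzyme to initiate.

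Of the 4 shared subunits 0 passed edgeR's test, none at an unadjusted p below 0.05. POLR2H gave 41.8, 51.5 and 46.4 CPM in WT and 40.7, 39.8 and 36.0 in MUT (-0.26, SE 0.13, edgeR adjusted p = 0.308). Every MUT value was below every WT value, though the nearest values, 40.7 and 41.8 CPM, were close. POLR2K gave 16.4, 19.8 and 15.6 CPM in WT and 19.5, 29.9 and 18.1 in MUT (0.38, SE 0.20). Its MUT mean rested on MUT replicate 2, and without that library the value was 0.14. POLR2E (-0.06) and POLR2L (-0.03) had values near 0.

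Among the 6 initiation factors 0 passed edgeR's test, again none at an unadjusted p below 0.05. UBTF, the architectural factor of active ribosomal DNA, was measured at 2.22, 1.95 and 2.22 CPM in WT and 2.34, 3.23 and 2.49 in MUT. The groups did not overlap (0.34, SE 0.17, edgeR adjusted p = 0.301), MUT replicate 2 was the highest, and without it the value was 0.20. RRN3, the factor that links the polymerase to SL1, had a value of 0.13 (SE 0.15). Its 4 pseudogene rows held 31.2% as many counts as RRN3 itself, so its own level is uncertain. The SL1 subunits TAF1A (0.14), TAF1B (-0.06), TAF1C (-0.08) and TAF1D (0.01) had values within their standard errors of 0. For TAF1A the groups nevertheless did not overlap, at 0.939, 0.986 and 0.923 CPM in WT and 1.02, 1.11 and 1.02 in MUT. TAF1D, at 11.4, 13.1 and 12 CPM in WT, was split in MUT into 17.2 in replicate 2 and 10.7 and 8.77 in the others, and without replicate 2 its value was -0.30.

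FBL was measured at 72.4, 77.6 and 76.0 CPM in WT and 51.4, 48.6 and 50.4 in MUT. All 3 MUT libraries lay below all WT libraries, and the spread within each group was small, so that MUT replicate 2 did not stand apart here. The log2 fold change was -0.59 (SE 0.12, edgeR adjusted p = 0.0475). DESeq2's Wald test (-0.57, adjusted p = 0.000346; 5.99% of 12763 genes called) and limma-voom (-0.59, adjusted p = 0.0327; 1.77% called) also called it. With DESeq2's size factors or TMM computed without structural and ribosomal RNA it missed the threshold narrowly (adjusted p = 0.0545 and 0.0539). The call was lost when any 1 library was left out, WT replicates 1, 2 and 3 and MUT replicates 1, 2 and 3 alike, with adjusted p-values from 0.0872 to 0.168 and values from -0.61 to -0.53. By library size alone FBL stood at -0.06 and on the log2(TPM + 1) scale at 0.02, where the medians of all genes were 0.53 and 0.36 and 0.696% and 0.736% of tested genes were called. FBL (chromosome 19, 39834458 to 39846379, GRCh38) has no row in the table named as its pseudogene.

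The genes of the other box C/D proteins did not pass edgeR's test. NOP56, a scaffold of the particle, gave 49.9, 55.5 and 43.8 CPM in WT and 55.0, 91.3 and 50 in MUT (0.40, SE 0.23, adjusted p = 0.383). The groups overlapped, and without MUT replicate 2 the value was 0.10. NOP58, its paralog and partner, gave 6.48, 6.12 and 7.06 against 5.59, 6.71 and 5.78 CPM (-0.12, SE 0.12). SNU13, which binds the kink-turn of the guide RNA and is also part of the spliceosome, had a value of -0.05 (SE 0.17).

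Ratios of RNA counts between the genes of a particle do not depend on how libraries are scaled. They were computed after the values above were seen, and say nothing of protein amounts. FBL had 1.45, 1.4 and 1.73 counts per count of NOP56 in WT and 0.934, 0.533 and 1.01 in MUT. Per count of NOP58 it had 10.8 to 12.7 in WT and 7.25 to 9.19 in MUT, and per count of SNU13 0.548 to 0.667 and 0.368 to 0.481. FBL was thus lower in MUT against each of its 3 partners without overlap. The same FBL counts enter all 3 ratios, so these are not separate observations. Of the pairs computed, 4 of 6 for box C/D and 3 of 6 for box H/ACA did not overlap. The share over all pairs of genes was not computed, so these counts have no background to be set against. Pairs of a particle reuse the same genes and are not separate observations. NOP56 against SNU13 was higher in MUT without overlap (0.385 to 0.435 in WT, 0.454 to 0.691 in MUT), while NOP58 overlapped against both NOP56 and SNU13. No test was made of these ratios, and the smallest p of an exact permutation test of 3 against 3 libraries would be 0.1.

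**Figure D3:**
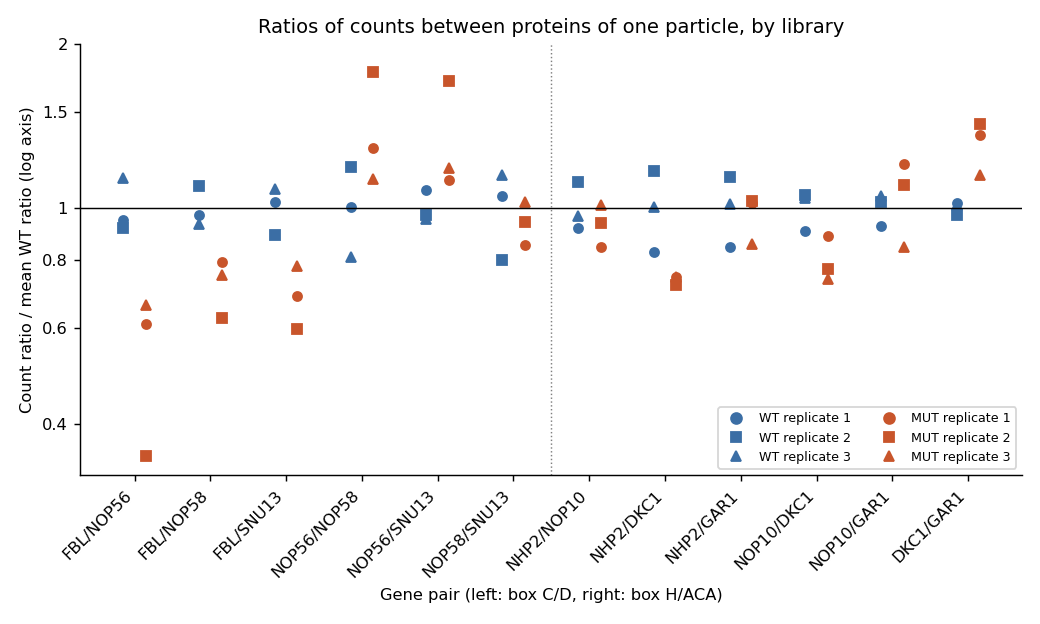
Ratio of RNA counts between the genes of 2 proteins of the same particle in each library, divided by the mean WT ratio (log axis). The 6 box C/D pairs are on the left and the 6 box H/ACA pairs on the right. The MUT points of the 3 ratios with FBL as numerator lie below all WT points; NHP2 and NOP10 against DKC1 also lie lower in MUT.

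Of the 5 box H/ACA genes 0 passed edgeR's test, and 0 had an unadjusted p below 0.05. DKC1 encodes dyskerin, and it, NHP2, NOP10 and NAF1 are mutated in dyskeratosis congenita or related telomere disorders, since the same proteins hold the telomerase RNA. DKC1 gave 5.59, 4.96 and 4.50 CPM in WT and 5.14, 6.33 and 4.98 in MUT (0.13, SE 0.14). NHP2 gave 102, 128 and 99.7 CPM in WT and 85.0, 101 and 82.0 in MUT, so that MUT replicate 2 alone reached the WT range (-0.30, SE 0.16, edgeR adjusted p = 0.352). NOP10 (-0.19, SE 0.15) overlapped, and GAR1 gave 1.73, 1.61 and 1.41 against 1.2, 1.40 and 1.37 CPM (-0.26, SE 0.17, adjusted p = 0.453), with 1.40 in MUT almost equal to 1.41 in WT. NAF1, the assembly factor that GAR1 replaces in the mature particle, had a value of -0.14 (SE 0.16). Within libraries NHP2 had 18.3 to 25.8 counts per count of DKC1 in WT and 15.9 to 16.5 in MUT. NOP10 had 14.2 to 16.5 and 11.6 to 13.9. Both ratios were lower in MUT without overlap, and DKC1 against GAR1 was higher (3.07 to 3.22 in WT, 3.63 to 4.51 in MUT). In each of these pairs the lower gene had the shorter longest transcript (NHP2 865, NOP10 554 and GAR1 1224 bases, DKC1 3079). The same held for the box C/D pairs without overlap (FBL 1400, SNU13 1503, NOP58 2046 and NOP56 2980 bases). Pairs among NHP2, NOP10 and GAR1 overlapped. The part of transcript length in these ratios was not tested.

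NOLC1, TCOF1 and NCL, which organise the nucleolus, had higher values in every MUT library than in any WT library. They are 3 of the 5 genes of their group, and 12.8% of all tested genes did the same. The group was formed with earlier results of these data known. NOLC1 encodes Nopp140, a phosphoprotein that carries snoRNPs, and was measured at 13.9, 14.3 and 14.0 CPM in WT and 17.2, 19.4 and 18.6 in MUT (0.39, SE 0.11, edgeR adjusted p = 0.101). The 3 WT libraries lay close together, and the lowest MUT value was well above them. TCOF1 encodes treacle, the related protein that binds polymerase I and UBTF; it gave 3.02, 3.13 and 2.86 against 3.44, 4.53 and 4.70 CPM (0.49, SE 0.14, adjusted p = 0.114). NCL encodes nucleolin, an RNA-binding protein of the early precursor, and gave 10.3, 8.77 and 9.30 against 11, 14.2 and 11.4 CPM (0.37, SE 0.14, adjusted p = 0.18). None of these passed, and leaving out 1 library gave adjusted p-values from 0.106 to 0.258 for NOLC1, 0.106 to 0.309 for TCOF1 and 0.222 to 0.354 for NCL.

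The 2 remaining genes of that group overlapped between WT and MUT. NPM1, the chaperone nucleophosmin that fills the granular part of the nucleolus, gave 191, 232 and 207 CPM in WT and 182, 247 and 177 in MUT (-0.06, SE 0.20). MUT replicate 2 was the highest of all 6 libraries and the other MUT libraries were the lowest. Its 50 pseudogene rows held 0.817% as many counts as NPM1. NOP16, a factor of the early large subunit, had a value of 0.04 (SE 0.13).

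NOP2, the methyltransferase that places 5-methylcytosine in 28S ribosomal RNA, came nearest to the threshold among the higher genes. It was measured at 3.36, 3.18 and 2.98 CPM in WT and 4.37, 4.47 and 4.55 in MUT, with a clear gap between the groups and MUT replicate 2 between the other MUT libraries. Its value was 0.49 on the log2 scale (SE 0.11, edgeR adjusted p = 0.0586). It passed when only genes with at least 1 CPM in 3 libraries were tested (adjusted p = 0.0445), and DESeq2 gave 0.0742. SIRT7, a deacetylase that binds polymerase I, gave 2.86, 2.90 and 2.40 against 3.13, 3.45 and 3.78 CPM (0.34, SE 0.14, adjusted p = 0.216). RRP8, which methylates adenosine in 28S RNA and takes part in a silencing complex on ribosomal DNA, gave 1.65, 1.68 and 2.03 against 2.14, 2.56 and 2.11 CPM (0.35, SE 0.16, adjusted p = 0.278). For RRP8 the nearest 2 values, 2.03 and 2.11, were almost equal.

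**Figure D4:**
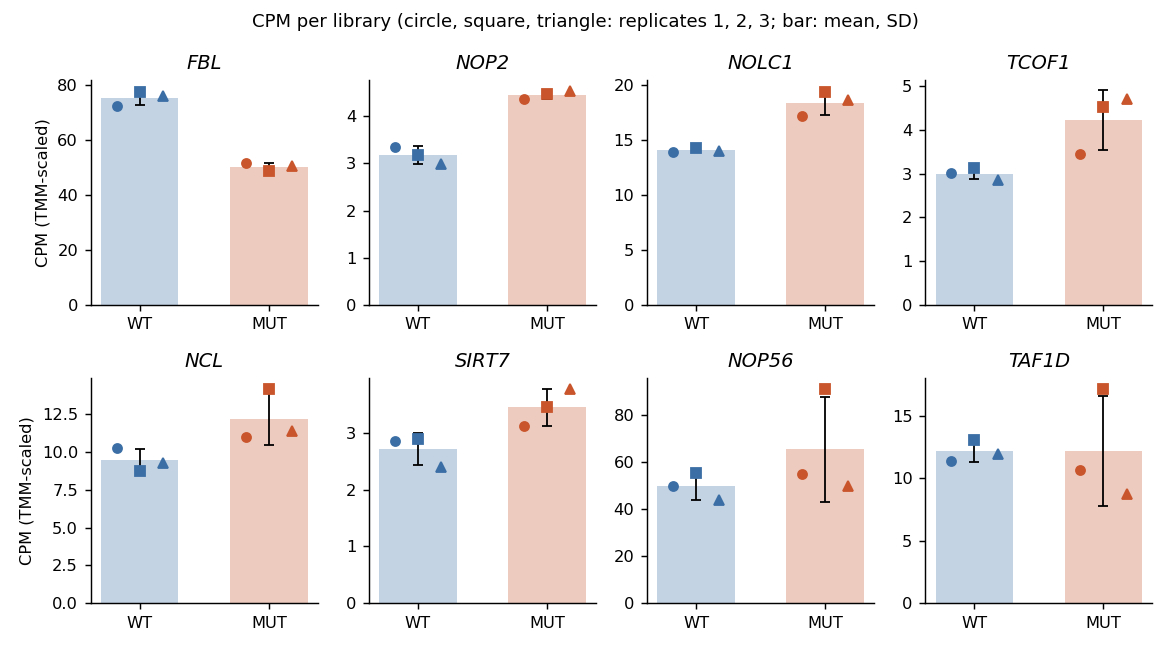
CPM per library of 8 of the genes; bars are group means, whiskers the SD of 3 libraries, and circle, square and triangle mark replicates 1, 2 and 3. FBL separates downwards (75.3 to 50.1 CPM) and NOP2 upwards (3.18 to 4.46), while the MUT means of NOP56 and TAF1D are carried by the square of MUT replicate 2.

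Over the 32 genes the log2 fold change correlated with the longest transcript at a Spearman rho of 0.48, against 0.08 over 11852 tested protein-coding genes. The longest transcripts of NOLC1, TCOF1, NCL, NOP2, RRP8 and SIRT7 were 3967, 5240, 4034, 3038, 6560 and 3445 bases, and those of FBL, NHP2, NOP10 and GAR1 1400, 865, 554 and 1224. The genes with values above 0.3 were thus mostly long, and those below -0.15 mostly short, with POLR2K (1021 bases, 0.38) and POLR1D (4592 bases, -0.21) as exceptions. The part of transcript length in these differences was not tested.

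Among 5 of the 32 genes that carry snoRNA genes in their introns (TAF1D, NOP56, NOP58, DKC1 and NCL) there were 22 such snoRNA rows. The 12 of box C/D type, 71 to 112 bases long, held 2 counts in all, and 10 of them were at 0 in every library. The 10 of box H/ACA type, 121 to 139 bases long, held 502 counts. With 3 rows tested, 0 passed edgeR's test, none at an unadjusted p below 0.05: SNORA25 (-0.29) and SNORA8 (-0.26) in TAF1D and SNORA51 (-0.51) in NOP56. SNORA25 had 32, 33 and 25 counts in WT and 48, 21 and 21 in MUT.

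Of 68 further genes of the pathway, all tested, 1 passed edgeR's test (1.47%), POLR3D, a subunit of RNA polymerase III that takes part in initiation and termination. It gave 2.18, 2.32 and 2.17 CPM in WT and 3.59, 3.61 and 3.59 in MUT, a wide gap beside a narrow spread (0.69, SE 0.12, adjusted p = 0.0277). Its call was lost when any 1 library other than MUT replicate 2 was left out (WT replicates 1, 2 and 3 and MUT replicates 1 and 3), with adjusted p-values over the 6 such fits from 0.0357 to 0.118. At an unadjusted p below 0.05, 9 of the 68 (13.2%) were higher and 8 (11.8%) lower, against 9.79% and 9.84% of all tested genes, and the median was 0.06.

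Of 7 other polymerase I subunits and factors 0 were called by edgeR (2 higher and 1 lower at an unadjusted p below 0.05, median 0.42). CAVIN1, a caveolar protein also known as a release factor of polymerase I, gave 2.25, 2.41 and 1.89 against 3.25, 3.32 and 3.71 CPM (0.64, adjusted p = 0.0562), and DESeq2's test called it (adjusted p = 0.0327). POLR1H, a small subunit that helps the enzyme to cleave its transcript, gave 21.3, 24.5 and 27.0 against 20.4, 14.8 and 17.4 CPM (-0.47, adjusted p = 0.137). Of 7 subunits of polymerase II alone 0 were called by edgeR (0 higher and 1 lower unadjusted, median -0.17), with POLR2C at -0.38 (adjusted p = 0.106) and POLR2I at -0.30 (0.278). Apart from POLR3D, the 11 subunits of polymerase III alone had no called gene, with a median of 0.11 over the 11. With POLR3D included, 2 were higher and 1 lower unadjusted, and values ran from -0.71 to 0.69.

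Regulators of ribosomal DNA gave 0 called genes of 12 in edgeR's test (2 higher and 1 lower unadjusted, median 0.09). MYC, which drives genes of ribosome production, gave 49.7, 39.1 and 43.4 CPM in WT and 42.4, 28.5 and 36.8 in MUT (-0.30, SE 0.17, adjusted p = 0.379). The groups overlapped and MUT replicate 2 was the lowest. Its dimer partner MAX stood at 0.41 (adjusted p = 0.135) and the insulator protein CTCF at -0.40 (0.19). Of 14 snoRNP assembly and Cajal body factors 0 were called by edgeR (2 higher and 1 lower unadjusted, median 0.11). PIH1D1, of the R2TP complex that assembles box C/D particles, gave 18.2, 20.9 and 21.7 against 14.5, 13.0 and 14.6 CPM (-0.53, adjusted p = 0.0601; DESeq2 adjusted p = 0.0111). COIL, which encodes the Cajal body scaffold coilin, gave 3.68, 3.74 and 3.12 against 4.57, 5.81 and 4.95 CPM (0.54, adjusted p = 0.0762). In both the groups were well apart, downwards for PIH1D1 and upwards for COIL.

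Of 9 stand-alone enzymes of ribosomal RNA modification 0 were called by edgeR (1 higher and 1 lower unadjusted, median -0.08), and 2 by DESeq2, which called 5.99% of all genes it tested. BUD23, which methylates guanosine in 18S RNA, gave 21.7, 23.1 and 21.5 against 15.1, 16.3 and 15.2 CPM (-0.51, adjusted p = 0.0529; DESeq2 0.00944). It was also called by limma-voom (adjusted p = 0.0417) and by edgeR without MUT replicate 2 (0.0408). EMG1, a methyltransferase for a hypermodified pseudouridine of 18S RNA, gave 26.9, 31.1 and 30.5 against 38.5, 42.8 and 36.9 CPM (0.42, adjusted p = 0.111; DESeq2 0.0379). The 2 enzymes thus stood on opposite sides, each without overlap between the groups. They were 22.2% of the 9, where 26.1% of all tested genes had no overlap. Of 6 other nucleolar proteins 0 were called by edgeR (0 higher and 1 lower unadjusted, median -0.16), with NOP53 at -0.35 (adjusted p = 0.158) and GNL3 at 0.29 (0.426).

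Of the 2 telomerase genes, which share dyskerin and its partners with box H/ACA snoRNPs, 0 were called by edgeR. TERT, the reverse transcriptase, was measured at 55, 78 and 40 counts in WT and 21, 36 and 31 in MUT, or 0.794, 1.04 and 0.923 against 0.279, 0.369 and 0.518 CPM. The groups did not overlap (-1.25, SE 0.29, adjusted p = 0.0654), and DESeq2 called TERT lower (adjusted p = 0.0208). TERC, the telomerase RNA, gave 425, 391 and 405 CPM in WT and 418, 219 and 290 in MUT (-0.40, SE 0.25, adjusted p = 0.432), with MUT replicate 1 inside the WT range and MUT replicate 2 the lowest.

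**Figure D5:**
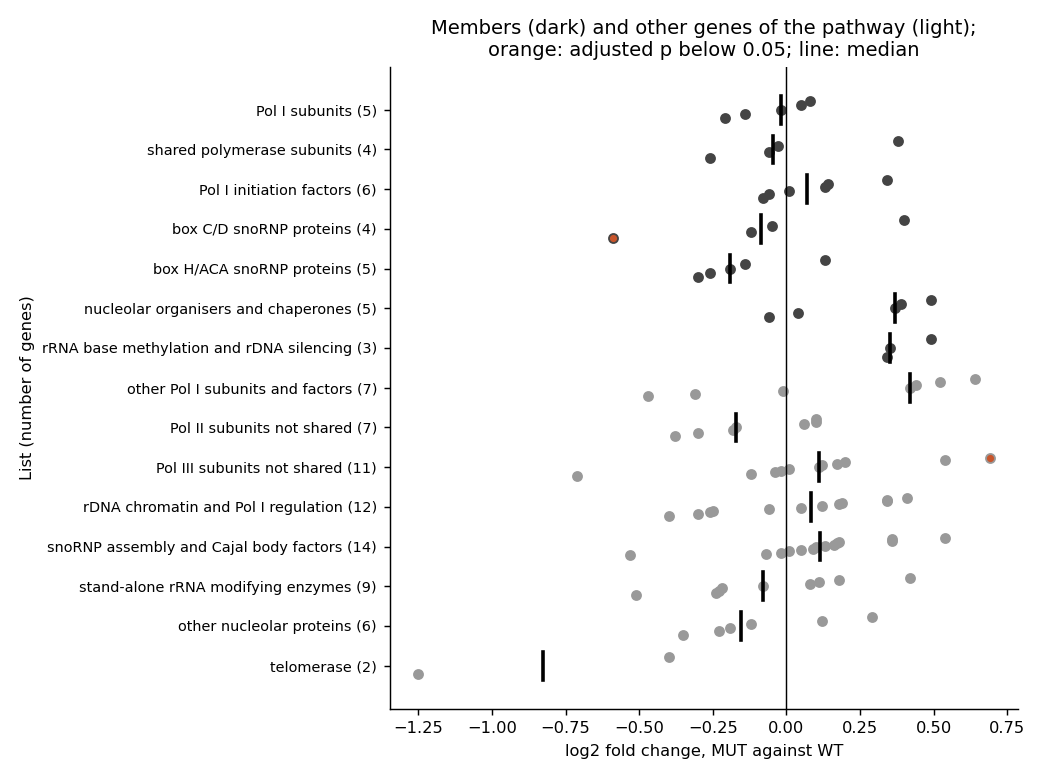
Log2 fold changes of MUT against WT for the 32 genes (dark points, by role) and 68 further genes of the pathway (light points, by list), with each median as a line. FBL at -0.59 and POLR3D at 0.69, in orange, are the 2 genes that passed the test; TERT lies farthest left at -1.25.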

How the data were processed

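RNA of 6 HCT116 libraries (3 WT, 3 MUT, grouped by title) was sequenced after phenol-chloroform extraction and a NEBNext Ultra II library preparation, per the labels' protocols. Tools listed in the submitters' processing notes, without a role, are RSEM 1.2.28, STAR 2.5.2b, DESeq2 1.42.0 and FastQC 0.12.1, with the build hg38; the annotation is not given in the sources used here. The authors deposited expected counts, which were all whole numbers, and tables of TPM and of FPKM normalised for depth and length. Such estimates divide reads between near-identical genes.

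The count tests used edgeR 4.0.16 (R 4.3.3, with limma 3.58.1): filterByExpr (minimum count 10, total 15), TMM scaling, glmQLFit and glmQLFTest over all genes, Benjamini-Hochberg adjustment over all 14808 tested genes, and calls below 0.05. The SE is the size of the log2 fold change divided by the square root of F. TPM served for levels between genes. No set test was made. Replicates of a group were distinct libraries: chi-square per degree of freedom over genes was 23.2 or more for every pair.

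The 32 genes, the lists and the roles were chosen with earlier results of these data known. Named are all 32 genes, EIF6, MYC, and of each list the called genes or otherwise the 2 with the smallest p; the hosted snoRNAs named are those tested. Promoters were taken from RefSeq, and transcript lengths from GENCODE v29, both on GRCh38. Alternatives were other scalings, filters and tests (DESeq2 1.42.0, limma-voom, limma on TPM and FPKM), a replicate block and leaving out each library; a fit on the 4 libraries low in ribosomal RNA was added after seeing the data. The procedure was tested on simulated counts. It called 86.4% of 4-fold, 30.3% of 2-fold and 4.55% of 1.5-fold changes, and 10 of 14238 unchanged genes. A gene that did not pass may therefore still differ by 1.5-fold or 2-fold.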

Additional observations from a re-analysis of the deposited data

How the results depend on the processing

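Over all genes 283 were called, against 103 by library size alone (91 higher and 12 lower, where the fit with TMM had 146 and 137), 1195 with no low-count filter, 462 with at least 1 CPM in 3 libraries, 764 with DESeq2, 21 and 10 with limma on log2(TPM + 1) and log2(TPM + 0.1), 13 on log2(FPKM + 1), and 27 (without WT replicate 2) to 442 (without MUT replicate 2) with 1 library left out. Of the 32 genes 1 was called; 0 were called with DESeq2's size factors, by library size alone, with TMM computed without structural and ribosomal RNA, on the TPM and FPKM scales, with the replicate block, with the 4 libraries low in ribosomal RNA, and with any 1 library left out (0 to 0), and 2 with at least 1 CPM in 3 libraries. Of the 68 further genes 1 was called, against 0 by library size alone, on the TPM and FPKM scales and with the 4 libraries, 2 with limma-voom, 4 with at least 1 CPM in 3 libraries, 6 each with no filter and with DESeq2, and 0 to 2 with 1 library left out. The cause of these differences was not tested, beyond the fewer genes or libraries in some fits. With the replicate number as a block, 296 genes were called over all; FBL had an adjusted p of 0.0531. Same-numbered libraries deviated together at correlations of -0.521, -0.152 and 0.365, and differently numbered ones at -0.466 to 0.53. Deviations from a group mean cancel out within the group, so these correlations depend on each other. They cannot decide whether the numbers pair the libraries.

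Relative to the median of all tested genes, signs turned for 11 genes near 0, none of them called under any setting. On the log2(TPM + 1), log2(TPM + 0.1) and log2(FPKM + 1) scales POLR2E stood at 0.11, 0.05 and 0.11, POLR2L at 0.22, 0.10 and 0.17, SNU13 at 0.18, 0.08 and 0.14 and NPM1 at 0.18, 0.06 and 0.13, with NOP10 at 0.05 on the first. TAF1B stood at 0.01 by library size alone and with limma-voom, and TAF1D at -0.02 with limma-voom and -0.03 with the block. With the 4 libraries POLR1A and POLR2E stood at 0, TAF1D at -0.35, NAF1 at 0.07 and NOP16 at -0.06. With 1 library left out, values ran from -0.1 to 0.09 for POLR1A, -0.05 to 0.16 for POLR1B, -0.16 to 0.05 for POLR2L, -0.15 to 0.09 for TAF1B, -0.3 to 0.22 for TAF1D, -0.11 to 0.08 for SNU13, -0.21 to 0.05 for NPM1 and -0.04 to 0.14 for NOP16. The genes with fewer than 200 counts in most libraries, such as TAF1A, UBTF and RRP8, have the widest counting error, and small changes in them cannot be resolved at this depth.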
